A study of Mus musculus with 6 samples.

Results

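Gpnmb is a transmembrane glycoprotein that macrophages make in large amounts when they take up lipid and debris, and its gene is a known target of the MiT/TFE transcription factors, the family to which TFEB belongs. It was examined together with Lgals3, Cd68, Spp1, Trem2, Fabp5 and Plin2, genes that are often read as a signature of lipid-loaded phagocytes. The genes were chosen from this same contrast with its results known, so their differences between the groups are given as a description, with no test. Of these 7 named genes, 6 were read by 8 probe sets that the platform annotation ties to a single gene symbol, out of 12393 genes read in that way. Expression of Spp1, which encodes osteopontin, was not analysed here, and only its promoter was searched.

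The arrays came from muscle of 6 wild-type C57BL/6 mice, labelled as 1 month old although the study describes adult animals. An adeno-associated virus (AAV) that expresses murine TFEB was injected into the muscle of 3 mice (TFEB group), and one that expresses green fluorescent protein, GFP, into that of the other 3 (GFP control group). Both vectors used the CMV promoter, which is not restricted to muscle fibers. No mouse without a vector was included, so both groups share the injection and the viral capsid. Total RNA of the whole muscle was hybridised, and each mouse gave 1 array. Values are log2 RMA values (background-corrected, normalised and summarised probe intensities), so a difference of 1 is 2-fold.

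Phagocytes engulf lipid, cell debris and damaged fibers and pass them to the lysosome, where TFEB-family factors tune the supply of hydrolases. A phagocyte that is loaded with lipid stores it in droplets coated by perilipins and carries fatty acids on binding proteins, and it displays lysosomal glycoproteins such as Cd68. In injured muscle these cells clear necrotic fibers. However, several of the same genes are also used by other cells, for example perilipins by muscle fibers, so none of them alone marks a cell type.

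The promoters of the genes differed in the motifs that MiT/TFE factors and AP-1 are known to bind. RefSeq promoter windows of GRCm38.p6, each running from 250 bases before to 50 after the annotated start, were available for 6 of the 7 genes, Fabp5 being the exception. The stretches from 100 bases before to 30 after the start are shown for the genes that held a match, with the motif in capitals: the AP-1 site TGACTCA in Gpnmb, on chr6:49036418-49036547 of the plus strand, and in Cd68, on chr11:69666141-69666270 of the minus strand, where it is read on the other strand, and the E-box CACGTG in Plin2, on chr4:86670030-86670159 of the minus strand.
Gpnmb: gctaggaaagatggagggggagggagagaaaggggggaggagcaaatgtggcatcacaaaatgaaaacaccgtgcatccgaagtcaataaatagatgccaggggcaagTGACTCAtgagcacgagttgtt
Cd68: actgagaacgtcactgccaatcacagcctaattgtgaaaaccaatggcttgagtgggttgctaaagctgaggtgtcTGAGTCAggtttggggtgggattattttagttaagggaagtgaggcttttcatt
Plin2: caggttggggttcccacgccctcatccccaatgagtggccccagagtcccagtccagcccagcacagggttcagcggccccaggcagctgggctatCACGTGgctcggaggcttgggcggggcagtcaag

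Both strands of the windows were searched for the E-box CACGTG, its longer form TCACGTGA and the M-box core CATGTG with its longer form TCATGTGA, and overlapping matches were allowed. The E-box was in 7.15% of the 32851 windows, and among the 6 genes with an entry it was in Plin2, where it began 4 bases before the start (position -4) and so crossed it. The longer forms TCACGTGA and TCATGTGA were in 0.974% and 0.986% of the windows and CATGTG was in 14.2%, and none of these was in a window of the 6 genes with an entry, which include Spp1. TGACTCA was added after the sequences had been seen. It was in 5.2% of the windows and in those of 2 of the same 6 genes, Gpnmb (position 9 after the start) and Cd68 (positions -149 and -24). A match describes letters in the window and not a bound site, and its absence says nothing about elements elsewhere.

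One control array stood apart from the other controls before any gene was considered. GFP control replicate 2 differed by more than 2-fold at 844 probe sets from replicate 1 and at 725 from replicate 3. Replicates 1 and 3 differed at 87 and the TFEB arrays among themselves at 45 to 101. From the TFEB arrays, GFP control replicate 2 differed at 903 to 1313 probe sets, replicate 1 at 1531 to 2307 and replicate 3 at 1481 to 2171. Values are therefore given below with and without GFP control replicate 2. The Actb 3' minus 5' probe difference, a sign of RNA or labelling quality, was 0.22 to 0.34 on TFEB arrays against 0.037 to 0.077 on GFP arrays, and its part in the results was not tested. The single Tfeb probe set read 8.49, 8.47 and 8.58 in the GFP arrays and 7.92, 7.68 and 7.61 in the TFEB arrays. Where its probes lie in the transcript and whether the vector carries that stretch was not analysed here, so it is no check of the group labels, and every direction below rests on those labels.

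All 6 genes read were higher in the TFEB muscles, with fold differences from 2.03 for Trem2 to 21.3 for Gpnmb and a median log2 difference of 2.40, against -0.05 over all genes. All 6 were past the limits used for every gene (adjusted p under 0.05 and at least 1.5-fold), as were 8.62% of all genes in the same direction, but Plin2 was not when GFP control replicate 3 or TFEB replicate 3 was left out. In all 6 the 3 TFEB values lay above the 3 GFP values, as they did in 22.9% of all genes. The genes were chosen on this contrast, so nothing is read from these counts. The control arrays are compared among themselves below, also without a test, and there the genes parted.

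Gpnmb showed the widest difference between the groups among the 6 genes. Its log2 value was 6.18, 5.92 and 6.31 in the GFP arrays (replicates 1 to 3) and 10.58, 10.14 and 10.93 in the TFEB arrays. The control arrays lay within 0.39 of each other and the lowest TFEB array was 3.83 above the highest control. The group means were 6.14 ± 0.20 and 10.55 ± 0.39 (SD, n = 3), a log2 difference of 4.41 ± 0.21 (SE), or 21.3-fold, which ranked 4 among the log2 differences of all genes. In GFP control replicate 2 it was the lowest of the 6 arrays, 0.32 under the mean of the other 2 controls, so that leaving this array out changed the difference only to 4.30.

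Fabp5, which encodes a binding protein that carries fatty acids in macrophages, epidermis and endothelium, was more even in the controls than Gpnmb, whose control SD was 0.20. Its probe set of higher mean read 8.83, 8.86 and 8.74 in the GFP arrays and 10.73, 10.77 and 11.18 in the TFEB arrays. The groups did not overlap, and replicate 2 was 0.07 above the other controls, or 3.27% of the way to the TFEB mean. The group means were 8.81 ± 0.058 and 10.89 ± 0.25 (SD, n = 3), a log2 difference of 2.08 ± 0.13 (SE), or 4.23-fold, and 2.11 without that array. The second probe set gave a similar picture, with 7.19, 7.10 and 7.16 against 8.72, 8.95 and 9.24, a difference of 1.82 ± 0.13 (3.54-fold).

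Lgals3, which encodes galectin-3, a sugar-binding protein that macrophages release and that gathers at damaged lysosomes, behaved differently in the controls. It read 8.13, 9.99 and 7.57 in the GFP arrays and 11.43, 11.44 and 11.83 in the TFEB arrays. GFP control replicate 2 was 2.14 above the mean of the other controls (4.39-fold), which is 57.4% of the way to the TFEB mean, yet every TFEB array lay above it, the lowest by 1.45. The group means were 8.56 ± 1.26 and 11.57 ± 0.23 (SD, n = 3), a log2 difference of 3.01 ± 0.58 (SE), or 8.03-fold. Against replicates 1 and 3 alone the difference was 3.72, and against replicate 2 alone 1.58, or 2.99-fold.

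Cd68, the heavily glycosylated late endosomal and lysosomal protein of macrophages, followed the same course. Its values were 6.19, 8.34 and 6.46 in the GFP arrays and 9.63, 9.69 and 9.84 in the TFEB arrays. Replicate 2 was again the high control, 2.02 above the others (4.06-fold) and 59.4% of the way to the TFEB mean, and the lowest TFEB array was 1.29 above it. The group means were 6.998 ± 1.17 and 9.72 ± 0.11 (SD, n = 3), a log2 difference of 2.73 ± 0.53 (SE), or 6.62-fold. It was 3.40 without replicate 2 and 1.38 (2.60-fold) against replicate 2 alone.

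Plin2, the perilipin that coats lipid droplets in most cells, including muscle fibers, took a course like that of Lgals3 and Cd68 with smaller differences. Its values were 8.08, 8.97 and 8.22 in the GFP arrays and 9.34, 9.55 and 9.87 in the TFEB arrays. Replicate 2 was 0.82 above the other controls (1.76-fold), 56.8% of the way to the TFEB mean, and the lowest TFEB array was only 0.37 above it. The group means were 8.42 ± 0.48 and 9.59 ± 0.27 (SD, n = 3), a log2 difference of 1.17 ± 0.25 (SE), or 2.24-fold. It was 1.44 without replicate 2 and 0.62 (1.54-fold) against replicate 2 alone.

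Trem2, the lipid-sensing receptor of macrophages and microglia, was read by 2 probe sets that disagreed. The brighter one read 5.55, 5.85 and 5.79 in the GFP arrays and 6.38, 6.85 and 7.01 in the TFEB arrays, so the groups did not overlap and replicate 2 was 0.18 above the other controls. Its group means were 5.73 ± 0.16 and 6.75 ± 0.33 (SD, n = 3), a log2 difference of 1.02 ± 0.17 (SE), or 2.03-fold, and 1.08 without replicate 2. The dimmer one read 4.67, 4.79 and 4.94 against 4.42, 4.75 and 4.54, a difference of -0.23 ± 0.11, and its groups overlapped. By mean value it was brighter than 25.1% of all probe sets, and the brighter one than 46.2%. The higher level of Trem2 therefore rests on 1 of its 2 probe sets.

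**Figure D1:**
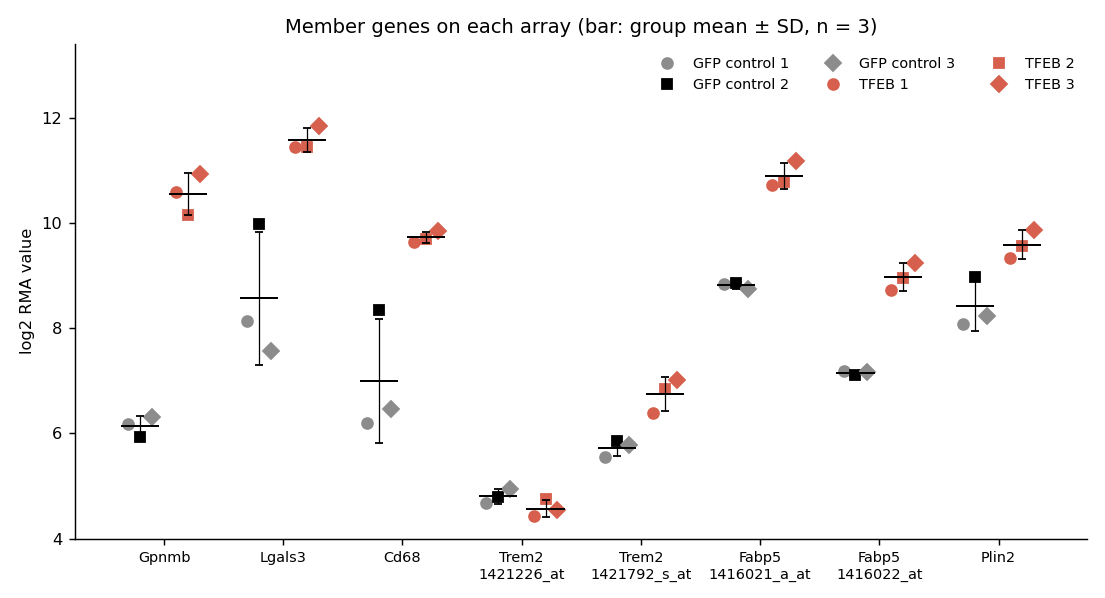
Log2 RMA value (vertical axis) of the 8 probe sets of Gpnmb, Lgals3, Cd68, Trem2, Fabp5 and Plin2 on each of the 3 GFP arrays (grey and black) and 3 TFEB arrays (red), with the group mean ± SD. GFP control replicate 2 (black squares) sits with the other controls in Gpnmb, Fabp5 and Trem2 and between the groups in Lgals3, Cd68 and Plin2.

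Across the control arrays the genes thus fell apart by how far GFP control replicate 2 departed from the other 2. Lgals3 and Cd68 were at least 1 log2 unit higher in that array, as were 3.81% of all genes, and their SDs over the controls were wider than those of 98.7% and 98.6% of genes. The control SD of Plin2 was wider than that of 94.4% of genes, that of Gpnmb than 78.7%, that of Trem2 than 68.2% and that of Fabp5 than 19.1%. Replicate 2 departed from the other controls by -0.32 in Gpnmb, and 7.08% of genes had a lower value. In every one of the 6 genes all TFEB arrays lay above replicate 2, which the lack of overlap given above already implies.

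Macrophage transcripts were read from 38 macrophage and monocyte markers, of which 37 were measured. Some of them, such as the pan-leukocyte gene Ptprc, are shared with other leukocytes. Markers of T, B and NK cells were also highest in replicate 2 (below), and the part of such cells in this list was not tested. The 37 markers were highest in GFP control replicate 2 and the TFEB arrays. Their mean log2 value was 6.31, 8.63 and 6.36 in the GFP arrays and 7.65, 8.44 and 8.42 in the TFEB arrays, and the log2 of their summed level was 12.003, 14.45 and 12.14 against 13.49, 14.29 and 14.29. In 21 of the 37 markers replicate 2 was above all TFEB arrays, and in 30 it was at least 1 log2 unit above the other controls. In whole-muscle RNA, more cells of a type and more RNA per cell cannot be told apart.

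The defining markers showed this array by array. Ptprc, the pan-leukocyte antigen CD45, read 5.93, 10.26 and 6.21 in the GFP arrays and 8.72, 9.31 and 9.39 in the TFEB arrays. Csf1r, the receptor for the macrophage growth factor CSF1, read 8.61, 10.04 and 8.65 against 9.91, 10.59 and 10.65, and Adgre1, which encodes F4/80, read 5.61, 8.31 and 5.71 against 7.74, 8.41 and 8.28. In all 3 markers replicate 2 was within the range of the TFEB arrays or above it.

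Only 2 of the 37 markers, Mertk and Ms4a7, passed the limits when all arrays were used, beside 8.62% of all genes called higher. None was lower (4.9% of all genes were called lower). Mertk, the receptor by which macrophages take up apoptotic cells, rose by 0.89 ± 0.13 (SE, adjusted p = 0.00375), and Ms4a7, a macrophage tetraspan gene, by 2.29 ± 0.69 (adjusted p = 0.0451), with replicate 2 at 0.17 and 2.47 above the other controls. The median log2 difference of the list was 1.12. Without replicate 2 the median was 2.01 and 33 of the 37 markers were called higher, beside 12.3% of all genes. The call of Mertk held when any single array was left out, whereas that of Ms4a7 was lost without any 1 of the other 5 arrays.

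The genes were then set against the macrophage list. The mean of the macrophage markers on an array was subtracted from each gene on the same array. That mean was highest in GFP control replicate 2, so a gene even across the controls falls lowest there by arithmetic. The subtraction also assumes that a gene changes in step with the list, which was not tested. The difference for Gpnmb was -0.12, -2.71 and -0.04 in the GFP arrays and 2.94, 1.71 and 2.51 in the TFEB arrays. For Lgals3 it was 1.82, 1.36 and 1.21 against 3.79, 3.00 and 3.42, and for Cd68 -0.12, -0.28 and 0.10 against 1.99, 1.26 and 1.43. In these 2 genes the 3 controls lay close together on this scale, replicate 2 included. The groups did not overlap in any of the 3 genes, but the genes were chosen on this contrast, so nothing is read from that. The size of such a difference depends on the probes, and only its change between arrays can be read.

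For the other 3 genes the groups overlapped on that scale. The difference for Fabp5 was 2.52, 0.23 and 2.39 in the GFP arrays and 3.08, 2.34 and 2.76 in the TFEB arrays. For Plin2 it was 1.77, 0.34 and 1.87 against 1.69, 1.12 and 1.46, and for Trem2 -0.76, -2.78 and -0.57 against -1.26, -1.59 and -1.40. As in Gpnmb, replicate 2 was the lowest array in each of them, and the subtracted mean was highest there.

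**Figure D2:**
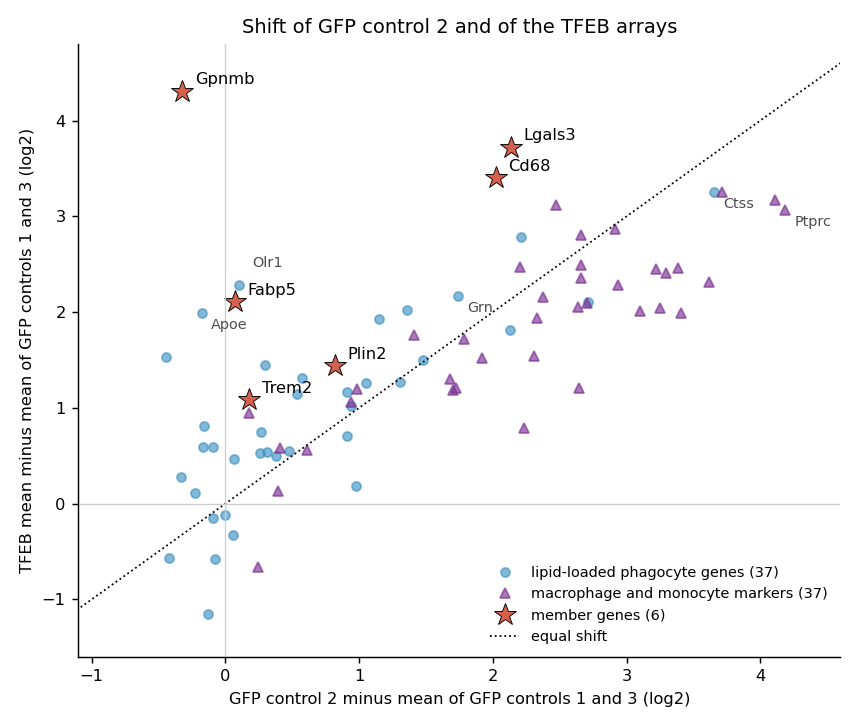
Shift of the TFEB mean (vertical axis, log2) against the shift of GFP control replicate 2 (horizontal axis, log2), both relative to the mean of GFP control replicates 1 and 3, for the 6 genes (stars), 37 phagocyte genes (circles) and 37 macrophage markers (triangles), with a dotted line of equal shift. The macrophage markers gather around or below the line, Lgals3 and Cd68 lie above it at 2.14 and 2.02 on the horizontal axis, and Gpnmb stands alone at the upper left (-0.32 and 4.30).

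A wider list of 41 genes of lipid-loaded phagocytes covered lipoprotein uptake, cholesterol handling and lysosomal proteases, and 37 of them were measured. In it 13 genes rose, 1 fell and 23 did not pass, and the median log2 difference was 0.70. Among all genes 8.62% were called higher and 4.9% lower. Olr1, the receptor for oxidised LDL, rose by 2.25 ± 0.19 (adjusted p = 0.000825), the lysosomal phospholipase D family gene Pld3 by 1.35 ± 0.13 (adjusted p = 0.0012), the bone and macrophage protease gene Ctsk by 1.68 ± 0.17 (adjusted p = 0.0013) and the cholesterol exporter gene Abca1 by 0.87 ± 0.10 (adjusted p = 0.0019), though Abca1 did not pass with the mean of its probe sets. The gene that fell was Npc1, the lysosomal cholesterol transporter, by -1.11 ± 0.08 (adjusted p = 0.00054). In these 4 risen genes replicate 2 was between -0.45 and 0.30 of the other controls. They were named by smallest p, which favours genes even in the controls, so nothing is read from this likeness to Gpnmb and Fabp5.

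Of the 13 risen genes, 4 were at least 1 log2 unit higher in replicate 2 than in the other controls and 9 were not. The 4 were Abcg1, Clec7a, Lgmn and Grn, which are named because of that count. They encode a cholesterol exporter, the beta-glucan receptor dectin-1, the lysosomal protease legumain and the lysosomal protein progranulin. Grn, for example, read 8.51, 10.19 and 8.40 in the GFP arrays and 10.38, 10.62 and 10.86 in the TFEB arrays, a rise of 1.59 ± 0.46 (adjusted p = 0.040). The calls of Grn and Clec7a were lost without any 1 of the arrays other than replicate 2, that of Abcg1 without GFP control replicate 1 or 3 or TFEB replicate 2 or 3, and that of Lgmn without GFP control replicate 3 or TFEB replicate 3. Over the 37 genes, 18 had all TFEB arrays above replicate 2 and 7 had replicate 2 above all TFEB arrays. One of the latter, Ctss, a macrophage protease gene chosen after its values were seen, read 7.67, 11.45 and 7.92 against 10.40, 11.33 and 11.42 (difference 2.03 ± 0.98, adjusted p = 0.153). Without replicate 2, 22 genes of the list rose and 1 fell, with a median of 0.81, and without GFP control replicate 3 or TFEB replicate 2 the risen genes numbered 8.

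The relatives and partners of each gene were looked at next, starting from Gpnmb. A list of its kin and of genes bound by MiT/TFE factors held 24 genes, of which 19 were measured. Of these, 3 rose (5 without TFEB replicate 1) and 1 fell, beside 8.62% and 4.9% of all genes. The median log2 difference was 0.20. Pmel, the melanosome matrix gene that is the closest paralogue of Gpnmb, read 5.24, 5.39 and 4.77 in the GFP arrays and 7.79, 7.26 and 8.03 in the TFEB arrays. The groups were far apart and replicate 2 was 0.38 above the other controls, for a rise of 2.56 ± 0.24 (5.90-fold, adjusted p = 0.001). The others that rose were Ctsk, given above, and Hexa, the alpha subunit gene of a lysosomal hexosaminidase (0.86 ± 0.13, adjusted p = 0.0047). Rragd, which encodes a Rag GTPase that recruits mTORC1 to the lysosome, fell by -1.61 ± 0.15 (adjusted p = 0.0011).

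Calls among the galectin and LAMP relatives of Lgals3 and Cd68 stand beside 8.62% of all genes called higher and 4.9% called lower. Nothing is read from their counts. In the galectin list 10 of 11 genes were measured, 1 rose and 1 fell, with a median of -0.04. Lgals3bp, which encodes a glycoprotein that binds galectin-3, rose by 1.63 ± 0.51 (adjusted p = 0.0499) with replicate 2 at 1.87 above the other controls, a call that was lost when any 1 of the other 5 arrays was left out, while the galectin-like gene Lgalsl fell by -0.70 ± 0.17 (adjusted p = 0.0204), a call lost without GFP control replicate 1 or 3 or TFEB replicate 2 or 3. Of the LAMP list 3 of 5 genes were measured and 0 passed the limits in limma. Without the fold limit 2 would have passed, Lamp1 (0.31 ± 0.07, adjusted p = 0.0193) and Lamp2 (0.44 ± 0.11, adjusted p = 0.0214), the major lysosomal membrane glycoproteins and kin of Cd68, and all 3 had an unadjusted p under 0.05. With the probe set of smallest p taken for each gene, 2 of the 3 passed both limits.

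Partners of Trem2 and receptors for osteopontin gave 1 call each. As 8.62% of all genes were called higher, nothing is read from these counts. Of 13 measured genes of the 15 in the TREM and TREM2 signalling list, 1 rose, with a list median of 0.27, and this was Apoe, a lipoprotein ligand of TREM2 that also stands in the phagocyte list. Apoe read 9.15, 8.99 and 9.19 in the GFP arrays and 10.47, 11.58 and 11.42 in the TFEB arrays, a rise of 2.05 ± 0.28 (4.14-fold, adjusted p = 0.0031) with replicate 2 among the other controls. Tyrobp, the adaptor DAP12 through which TREM2 signals, is named for that role after its values were seen. It read 6.64, 9.54 and 7.02 against 8.29, 9.20 and 9.32, so that replicate 2 was its highest array and the difference of 1.20 ± 0.75 did not pass (adjusted p = 0.255). Without replicate 2, 7 genes of this list were higher. Of 13 osteopontin receptors and kin, all measured, 1 rose, the integrin gene Itgav (0.72 ± 0.08, adjusted p = 0.0017), and the list median was -0.03. With the mean of its probe sets Itgav was 0.39 and under the fold limit. Without replicate 2 the list had 2 calls.

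The lists of relatives of Fabp5 and Plin2 had similar medians, with 0 and 4 genes called higher, beside 8.62% of all genes. In the fatty acid binding protein list 10 of 13 genes were measured and 0 passed both limits in limma, and the median was -0.08. Without the fold limit 2 would have passed as higher and 2 as lower, as many as had an unadjusted p under 0.05. The 2 of smallest p were the retinoic acid binding protein gene Crabp1 (-0.39 ± 0.09, adjusted p = 0.0208) and Fabp3, the binding protein gene of heart and muscle fibers (0.42 ± 0.11, adjusted p = 0.0266). In the perilipin and lipid droplet list 19 of 22 genes were measured, 4 rose, and the median was -0.08. Cidea, a droplet fusion gene, rose by 0.88 ± 0.13 (adjusted p = 0.0039), the perilipin gene Plin3 by 0.79 ± 0.12 (adjusted p = 0.0047), the monoglyceride lipase gene Mgll by 0.67 ± 0.13 (adjusted p = 0.0097) and G0s2, an inhibitor of adipose triglyceride lipase, by 1.41 ± 0.35 (adjusted p = 0.023). In each of these 4 genes replicate 2 was below the mean of the other controls, unlike in Plin2. Without replicate 2 the list had 3 higher and 1 lower, Mgll being 0.54 and under the fold limit, and the call of G0s2 was lost without GFP control replicate 1 or TFEB replicate 1 or 3. With the mean of its probe sets Mgll was 0.32 and did not pass.

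**Figure D3:**
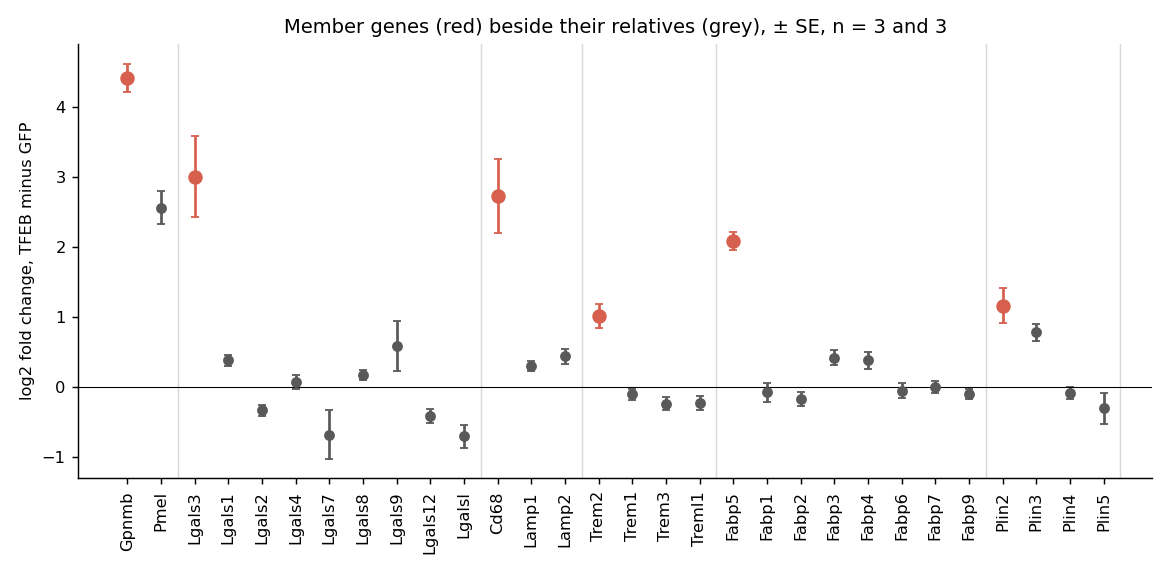
Log2 difference of TFEB minus GFP (vertical axis) ± SE (limma, 3 arrays a group) for the 6 genes (red) and their measured relatives (grey), family by family. Gpnmb has a risen paralogue in Pmel (2.56), and Plin2 in Plin3 (0.79) but not in Plin4 (-0.08) or Plin5 (-0.30). The Fabp genes beside Fabp5 lie between -0.17 and 0.42 and the relatives of Trem2 below 0.

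Markers of other cell types moved too, and their part in the results above was not tested. Their calls stand beside 8.62% of all genes called higher and 4.9% called lower. Of 12 measured markers of T, B and NK cells (of 16), 0 passed in limma and 0 had an unadjusted p under 0.05, and in all 12 GFP control replicate 2 was above every TFEB array. Without it 4 were higher. The mean of the list was 6.42 in replicate 2, against 4.81 and 4.88 in replicates 1 and 3 and 5.05 to 5.29 with TFEB, and Cd3d, a T cell receptor subunit gene, read 5.08, 7.52 and 5.30 against 5.90, 5.87 and 6.24. Of 10 measured neutrophil markers (of 12), S100a8 (3.25 ± 0.22, adjusted p = 0.00049) and S100a9 (0.60 ± 0.11, adjusted p = 0.0073) rose and the list median was -0.12, but the call of S100a9 was lost without GFP control replicate 2, TFEB replicate 1 or TFEB replicate 3.

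Structural cells of the tissue gave another pattern, set here beside 8.62% of all genes called higher and 4.9% called lower. Among 11 endothelial markers 6 rose, with means of 7.37 to 7.62 under GFP and 8.17 to 8.38 under TFEB, led by the receptor gene Tie1 (1.55 ± 0.11, adjusted p = 0.00057). Among 10 fibroblast markers 6 rose, with means of 9.45 to 9.60 and 10.77 to 11.06, led by the receptor gene Pdgfrb (1.71 ± 0.09, adjusted p = 0.00029) and the matrix gene Postn (4.25 ± 0.23, adjusted p = 0.00029). In both lists the mean of replicate 2 was the lowest of the 6 arrays, as the value of Gpnmb was. Of 8 satellite cell markers 3 rose. Of the 6 adipocyte, 5 Schwann cell and 14 fast fibre contractile genes measured (of 8, 8 and 15), 0 passed the limits in limma, and at an unadjusted p under 0.05 the adipocyte list had 3 lower, the Schwann cell list 2 lower and the fast fibre list 2 higher and 1 lower. Without GFP control replicate 2, 3 adipocyte markers and 1 Schwann cell marker were lower.

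**Figure D4:**
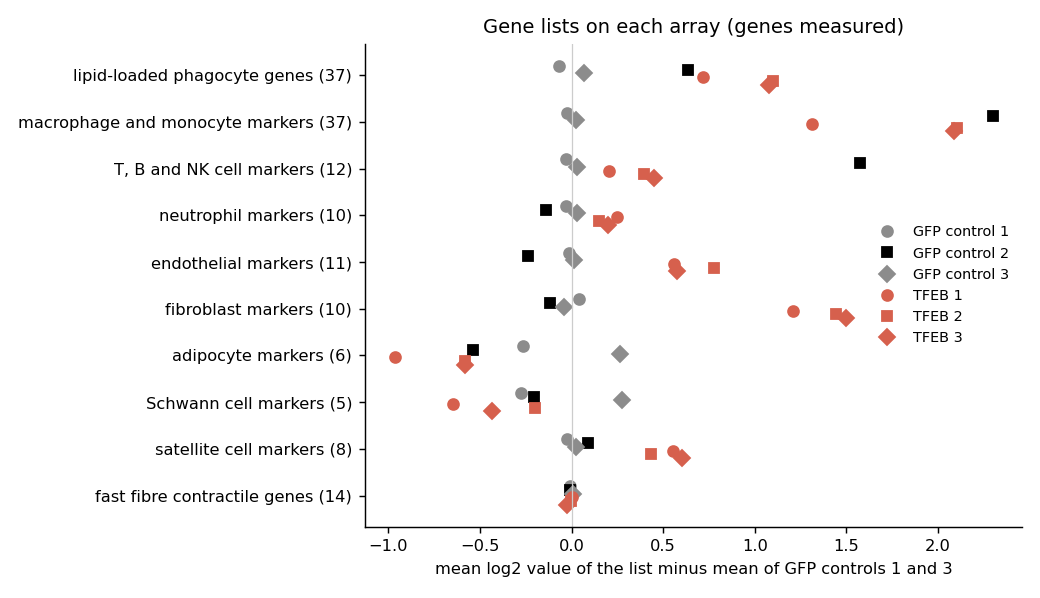
Mean log2 value of each gene list on each array minus its mean in GFP control replicates 1 and 3 (horizontal axis), with the number of genes measured in parentheses. GFP control replicate 2 (black squares) lies with or beyond the TFEB arrays (red) for macrophage and lymphocyte markers and with the other controls for endothelial, fibroblast and fast fibre genes.

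Finally, the genes whose pattern over the 6 arrays was most like that of each gene were listed, among the 429 or 430 genes whose values spanned at least 2 log2 units. All points share the arrays and the split into groups, so the coefficients describe and do not test. For Gpnmb 103 genes had a Pearson r over 0.95 (n = 6 arrays), and the closest were Meg3, an imprinted noncoding RNA gene, Atp1b4, a muscle gene related to Na,K-ATPase subunits, Gal, which encodes the neuropeptide galanin, Eno2, the neuronal enolase gene, and Chrna1, the acetylcholine receptor alpha subunit gene. Their r was between 0.998 and 0.999. None of the 5 is in the macrophage list, and in each of them replicate 2 differed from the other controls by at most 0.37. Both follow largely from choosing genes by their likeness to Gpnmb, so nothing is read from them.

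The other genes had other neighbours. Lgals3 was closest to Trim59, Adam19 and Cks2 (r = 0.996, 0.996 and 0.995) and Cd68 to Serpinb1a, Runx1 and Trim59 (r = 0.998, 0.997 and 0.995). Plin2 was closest to Lgmn, Rassf2 and Litaf (r = 0.995 for each), Trem2 to Akr1b8, Bgn and Gatm (r = 0.989, 0.986 and 0.986) and Fabp5 to Dmbt1, Klhl13 and Plvap (r = 0.999, 0.998 and 0.998). Among the 6 genes themselves r was highest between Gpnmb and Fabp5 (0.993), between Lgals3 and Cd68 (0.988) and between Cd68 and Plin2 (0.981), and lowest between Gpnmb and Plin2 (0.867). GFP control replicate 2 was at the level of the other controls in both genes of the first pair and between the groups in Lgals3, Cd68 and Plin2. These positions enter r, so the coefficients restate them.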

How the data were processed

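Total RNA from muscle was labelled as biotinylated cRNA and hybridised to Affymetrix arrays, 3 per group. The authors deposited log2 values, made with RMA in the affy package (versions not stated). The platform annotation gave 1 gene symbol for 20380 of 22690 probe sets, several for 691 and none for 1555, and 64 Affymetrix controls were left out. Where a gene had several probe sets, the one of highest mean was used. The remaining 22626 probe sets were fitted with limma 3.58.1 in R 4.3.3 (2 groups, no covariate, two-sided, Benjamini-Hochberg). A gene was called at an adjusted p under 0.05 and at least 1.5-fold. The number of arrays limits the precision.

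The 7 genes and the lists (270 entries, 237 measured) were chosen with earlier results of these data known. From each list, at most 4 called genes in the prevailing direction and at most 2 in the opposite one are named, by smallest p. Where none was called, at most the 2 of smallest p are named. Also named are the first 3 macrophage markers, the first T, B and NK cell marker and the 3 genes (5 for Gpnmb) of highest r. The fit was tested on simulated data. Alternatives were other scalings, weights, priors, probe set rules, a t-test, a replicate block and leaving out each array.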

Additional observations from a re-analysis of the deposited data

How the results depend on the processing

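Each count was computed again under 16 other settings, which, for the partner and family lists and the markers of cells other than macrophages, were chosen after seeing the data. No result reversed. The 6 genes past the limits numbered 5 to 6 when 1 array was left out, Plin2 being lost without GFP control replicate 3 or TFEB replicate 3, and 3 with the methods' t-test after Benjamini-Hochberg adjustment, which lost Lgals3, Cd68 and Plin2. That test also made 0 calls, as limma did, in the LAMP, fatty acid binding protein, T, B and NK cell, adipocyte, Schwann cell and fast fibre lists. With the mean of a gene's probe sets the difference of Trem2 was 0.39 and it was no longer past the limits. Their log2 differences ranged from 4.22 to 4.62 for Gpnmb, 2.51 to 3.72 for Lgals3, 2.32 to 3.40 for Cd68, 0.39 to 1.20 for Trem2, 1.94 to 2.17 for Fabp5 and 0.99 to 1.44 for Plin2.

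The 13 risen phagocyte genes numbered 8 to 22 when 1 array was left out (the highest with GFP control replicate 2 left out, the lowest with GFP control replicate 3 or TFEB replicate 2 left out), 21 with array weights and 8 with the t-test. The 2 risen macrophage markers numbered 1 to 33 when 1 array was left out, 33 being without GFP control replicate 2, 23 with array weights, and 1 with the t-test or with an intensity trend and robust prior. The 10 risen genes of the partner and family lists numbered 8 to 18 when 1 array was left out and 16 with array weights. The cause of these shifts was not tested, except that fewer arrays entered the fits that left one out.

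Samples share replicate numbers, and no pairing was used in the reported fit. Deviations from the group means correlated at 0.42, 0.17 and -0.23 in replicates 1, 2 and 3. With 3 arrays a group, such values cannot decide whether the numbers pair the samples. With the replicate block 6 genes were past the limits, and 15 phagocyte genes and 5 macrophage markers rose.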
